A study of Mus musculus with 12 samples.

Results

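The markers followed here are Clec4f, Vsig4, Marco, Cd5l, Cd68, Cd163, Timd4 and Csf1r, 8 genes that mark Kupffer cells and other macrophages. Every probe whose accession maps to one of these symbols was taken, which gave 9 probes for 7 of the 8 genes, among the 20886 genes with a matched probe on the array. Cd68, a glycoprotein of macrophage lysosomes, had no matched probe and is not analysed here. Csf1r had 3 probes and each of the other 6 genes had 1. The rule itself uses no measured value, although the genes were listed with earlier results of these data known, and all 9 probes were well above background on all 12 arrays.

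Liver RNA of 12 female C57BL/6N mice, 3 in each of 4 groups, was measured on 1-colour arrays after 6 months on a diet. All groups ate a formula diet abbreviated NFD, and the mice had been bought at 6 weeks of age. Ctrl mice ate NFD with corn starch and sucrose as its carbohydrates, and RS mice ate the same feed with resveratrol, a plant polyphenol, added to it. In the DJ feed, rice of the variety Dongjin took the place of these carbohydrates, and in the DJ526 feed their place was taken by DJ526, a Dongjin rice that carries the stilbene synthase gene of peanut and so makes resveratrol in its grain. Ctrl and DJ thus had no added resveratrol, and the amounts eaten by RS and DJ526 mice are not given in the sources used here. The liver label was borne out by its defining markers, since albumin (Alb) lay between 9.10 and 9.49 in the 12 mice. Levels are given as log2 of the signal of a probe over the 75th percentile of its array, so that 0 is the signal at that percentile and a difference of 1 is a change of 2-fold. Spots well above background made up 73.0% to 80.8% of an array, and none was saturated. Diets follow the label of each array, but a sample table of the study gives the arrays labelled RS to DJ and those labelled DJ to RS, and if that table were right every RS and DJ value here would be exchanged. A second label of Ctrl mouse 3 carries the number 1, which leaves its diet as it is. Ctrl mouse 3 stood apart from the other Ctrl mice in neutrophil genes, in Marco and in Timd4, and values without it are given where it decided a result.

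Kupffer cells are the resident macrophages of the liver. They sit in the sinusoids, where they take up bacteria, complement-coated particles, aged red cells and dying cells from the blood, and they depend on signals through the receptor encoded by Csf1r. In RNA of whole liver, fewer Kupffer cells and less marker RNA per cell cannot be told apart.

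No marker changed between diets past the test, whereas 4 of the 7 markers, Clec4f, Vsig4, Cd5l and Csf1r, were low in the same 4 mice, which came from 3 diets. Marco varied most, over 9.60-fold, and followed Timd4 rather than those 4 genes. In the main fit only Cd163 had an unadjusted limma p under 0.05 in any comparison. All 3 RS mice lay below all 3 Ctrl mice and all 3 DJ526 mice in Cd163. Groups were likewise apart for 10.2% of all probes in RS against Ctrl and 11.1% in DJ526 against RS. With normexp background correction these Cd163 differences were only -0.11 and 0.11.

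Csf1r encodes the receptor of the growth factors CSF1 and IL-34, on which macrophages depend. By its brightest probe its level was 4.69, 4.37 and 4.96 in Ctrl mice 1, 2 and 3, then 4.85, 4.28 and 4.11 in RS, 4.24, 4.46 and 4.61 in DJ, and 4.70, 4.22 and 4.55 in DJ526. Ctrl mouse 3 was highest and RS mouse 3 lowest, and all 4 groups overlapped. The group means ran from 4.67 ± 0.293 (SD, n = 3) in Ctrl through 4.49 ± 0.244 in DJ526 and 4.44 ± 0.187 in DJ to 4.41 ± 0.391 in RS, and no neighbours in this order differed beyond their spread. Of the other 2 probes, 1 ran with Clec4f across the mice and the other did not, with an r of 0.954 and 0.0165 against 0.917 for the brightest probe. The probe that stood apart varied over 1.44-fold only. It was the only 1 of the 3 with groups that did not overlap in any comparison, DJ526 lying above DJ by 0.10 (limma adjusted p = 0.818). Groups were apart in that comparison for 18.5% of all probes.

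Clec4f, a C-type lectin receptor that in mice is made almost only by Kupffer cells, had levels of 3.50, 3.30 and 3.83 in Ctrl, 3.68, 3.02 and 2.89 in RS, 2.74, 3.43 and 3.74 in DJ, and 3.53, 2.98 and 3.27 in DJ526, in the order of the mouse numbers. The lowest value was that of DJ mouse 1 and the highest that of Ctrl mouse 3, a span of 2.12-fold. All groups overlapped, because RS, DJ and DJ526 each held mice near the Ctrl level and mice well under it. Means were 3.54 ± 0.265 in Ctrl, 3.30 ± 0.509 in DJ, 3.26 ± 0.274 in DJ526 and 3.20 ± 0.425 in RS (SD, n = 3 each), with no neighbours apart beyond their spread.

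Vsig4, the complement receptor by which Kupffer cells hold particles coated with C3 fragments, measured 4.35, 4.25 and 4.38 in Ctrl, 4.32, 3.70 and 3.84 in RS, 3.84, 4.16 and 4.34 in DJ, and 4.36, 3.77 and 4.28 in DJ526. The 3 Ctrl mice lay close together, with an SD of 0.0687, whereas each other group held at least 1 mouse at 3.84 or less. The span over all mice was 1.60-fold, the smallest of the 7 genes, and the order of means was Ctrl, DJ526, DJ and RS.

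Cd5l encodes a secreted protein of macrophages, also known as apoptosis inhibitor of macrophage. Its levels were 5.38, 5.14 and 5.96 in Ctrl, 5.36, 4.80 and 4.56 in RS, 4.68, 4.98 and 5.40 in DJ, and 5.31, 4.67 and 4.98 in DJ526. Its span of 2.63-fold ran from RS mouse 3 to Ctrl mouse 3. The Ctrl mean of 5.49 ± 0.422 was followed by 5.02 ± 0.363 in DJ, 4.99 ± 0.321 in DJ526 and 4.91 ± 0.411 in RS (SD, n = 3 each), with 35.1% of the variance between the diets, and the groups overlapped.

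Marco, a class A scavenger receptor that binds bacteria and inhaled or blood-borne particles, had levels of 3.05, 3.15 and 5.24 in Ctrl, 2.92, 3.92 and 3.70 in RS, 3.26, 1.98 and 3.56 in DJ, and 3.82, 3.31 and 4.52 in DJ526. Ctrl mouse 3 stood far over the other Ctrl mice, and DJ mouse 2 was well under all others. The span of 9.60-fold was wider than that of 99.1% of the 27283 probes well above background on all arrays, whose median span was 0.66 on the log2 scale. Its order of means was DJ526, Ctrl, RS and DJ, with SDs of 0.524 to 1.24 within groups and overlap in every comparison.

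Timd4, the receptor for phosphatidylserine on dying cells that marks long-resident macrophages, measured -0.81, -0.60 and 0.18 in Ctrl, -0.58, -0.77 and -0.45 in RS, -0.90, -1.03 and -0.80 in DJ, and -0.42, -0.92 and -0.21 in DJ526. Ctrl mouse 3 was again the highest and DJ mouse 2 again the lowest. The 3 DJ mice lay within a narrow range, with an SD of 0.113, and overlapped the Ctrl and DJ526 mice. They did not overlap the RS mice, but the gap was small, from -0.80 in DJ mouse 3 to -0.77 in RS mouse 2. This pair of diets was not tested, and the share of all probes with DJ and RS mice apart was not computed. In the comparisons made that share lay between 9.39% and 20.8%, so the gap is not read as a difference by diet. The order of means was Ctrl, DJ526, RS and DJ.

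Cd163, the scavenger receptor for haptoglobin bound to haemoglobin, was read at a much dimmer probe, with levels of -4.57, -4.51 and -4.44 in Ctrl, -4.70, -4.98 and -5.00 in RS, -4.94, -4.62 and -4.50 in DJ, and -4.26, -4.54 and -4.55 in DJ526. All 3 RS mice were under every Ctrl mouse and every DJ526 mouse, and DJ mice covered the range between. Groups were apart for 10.2% of all probes in RS against Ctrl and for 11.1% in DJ526 against RS. The lowest signal well above background lay between -7.22 and -6.66 on the 12 arrays, so that this probe was dim but detected. Diet held 62.4% of its variance, the highest share of the 7 genes, beside a median of 28.5% over the 27283 detected probes.

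**Figure D1:**
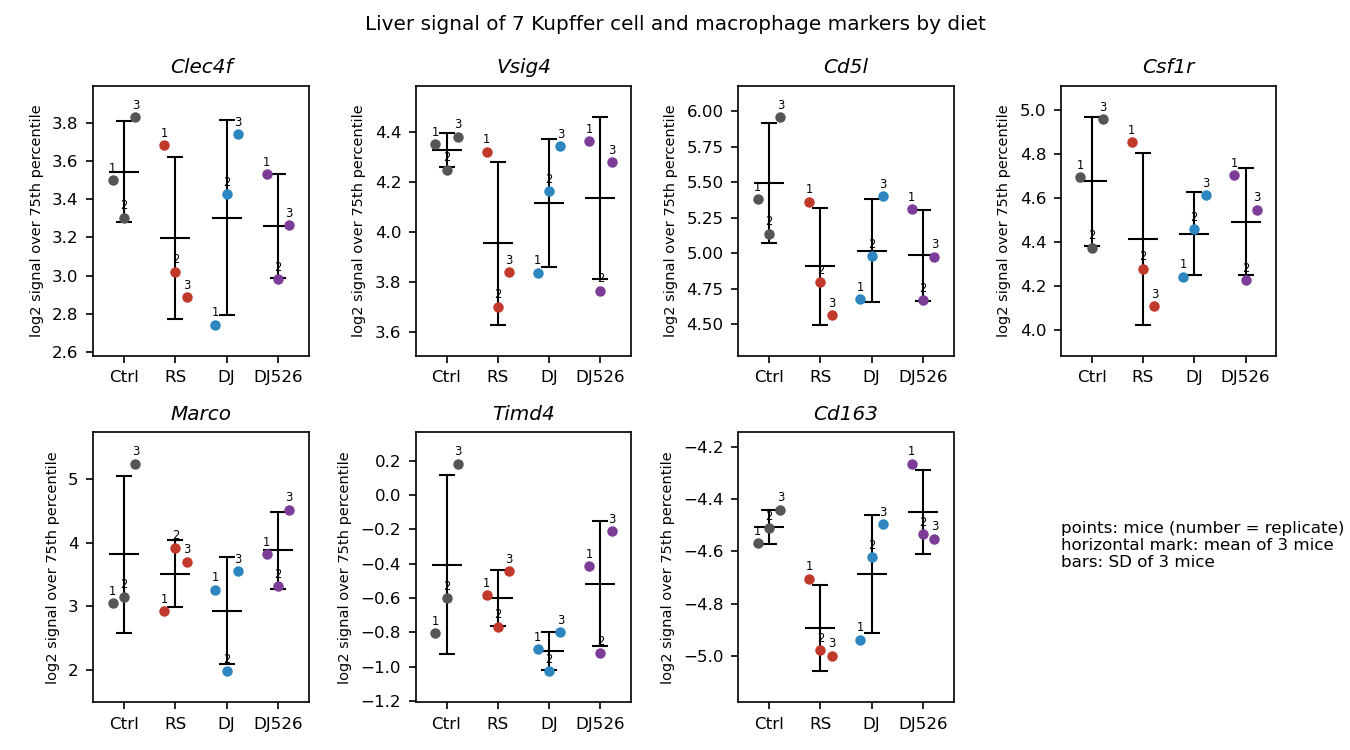
Level of 7 markers in the liver of each mouse, as log2 signal over the 75th percentile of the array, by diet. Points are mice with their replicate number, the horizontal mark is the mean and the bars are the SD of 3 mice, and in the 5 comparisons made the groups overlap except for RS against Ctrl and DJ526 against RS in Cd163.

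The design asks whether resveratrol, rice or resveratrol-enriched rice shifted these markers relative to the starch and sucrose diet, and whether the transgenic rice differed from its parent or from resveratrol alone. The 3 comparisons with Ctrl share the same 3 control mice, and every comparison was read from 1 limma fit over all 39429 probes. With RS against Ctrl, 0 of the 7 markers passed an adjusted p of 0.05, beside 0.0% of all probes called. By unadjusted p under 0.05 the only marker was Cd163, both by limma and by the methods' t-test, where 6.0% of all probes met that threshold by limma. Cd163 was lower in RS by a log2 difference of -0.39 (SE 0.175, 95% interval -0.77 to -0.00, limma adjusted p = 0.831), and its groups were apart, as they were for 10.2% of all probes. The 7 differences ran from -0.58 for Cd5l to -0.19 for Timd4 with a median of -0.35, beside 0.03 over all probes.

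With DJ against Ctrl, 0 of 7 markers were called, beside 0.0% of all probes, and 0 of 7 had an unadjusted p under 0.05 by limma or by the methods' t-test, where 5.25% of all probes did by limma. The 7 differences lay between -0.88 for Marco and -0.18 for Cd163, with a median of -0.24, and the widest interval, that of Marco, ran from -2.19 to 0.42. No marker's mice were apart from the Ctrl mice, beside 9.39% of all probes.

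In the DJ526 group, 0 of 7 markers were called against Ctrl, beside 0.00507% of all probes, and 0 of 7 had an unadjusted p under 0.05 by either tool, beside 10.8% by limma. Differences ran from -0.51 for Cd5l to 0.07 for Marco, 5 of them under 0. Groups were apart for none of the 7 markers and for 20.8% of all probes.

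The transgenic rice against its parent gave 0 of 7 calls, beside 0.0101% of all probes, and 0 of 7 with an unadjusted p under 0.05 by either tool, beside 9.84% by limma. The 7 differences reached up to 0.95 for Marco, while Clec4f, Vsig4, Cd5l and Csf1r differed by -0.04 to 0.05, and some of these turned direction with 1 mouse left out. The intervals of these 4 genes reached as far as -0.64 and 0.56, and changes of that size were not detectable with 3 mice a group. No marker by its brightest probe had groups apart, beside 18.5% of all probes.

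DJ526 against RS compared feeds that both held resveratrol but differed in carbohydrate source, and possibly in the amount of resveratrol eaten. These cannot be told apart here. In this comparison 0 of 7 markers were called, beside 0.00761% of all probes. Cd163 was the only marker with an unadjusted p under 0.05 by either tool, beside 5.51% of all probes by limma, and lay 0.44 higher in DJ526 (SE 0.175, 95% interval 0.06 to 0.83, limma adjusted p = 0.805). Its groups were apart, as were those of 11.1% of all probes. The 7 differences were all above 0, from 0.06 for Clec4f upward, with a median of 0.08, but without RS mouse 3 or without DJ526 mouse 1 only 4 of the 7 were above 0, without RS mouse 2 only 5, and without DJ526 mouse 3 or with slide as a block only 6.

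Whether resveratrol acted alike on both carbohydrate sources was read from the difference of its effects, DJ526 minus DJ against RS minus Ctrl, and 0 of 7 markers were called there, beside 0.0% of all probes. Only Cd163 had an unadjusted p under 0.05, beside 6.14% of all probes, with a difference of 0.62 (SE 0.247, 95% interval 0.08 to 1.17, limma adjusted p = 0.763). For any difference among the 4 diets 0 of 7 markers were called, beside 0.00507% of all probes, with a lowest adjusted p of 0.729 for Cd163 by limma. There 0 of 7 had an unadjusted p under 0.05 by limma, beside 7.74% of all probes, and Cd163 alone did by the one-way form of the methods' test.

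**Figure D2:**
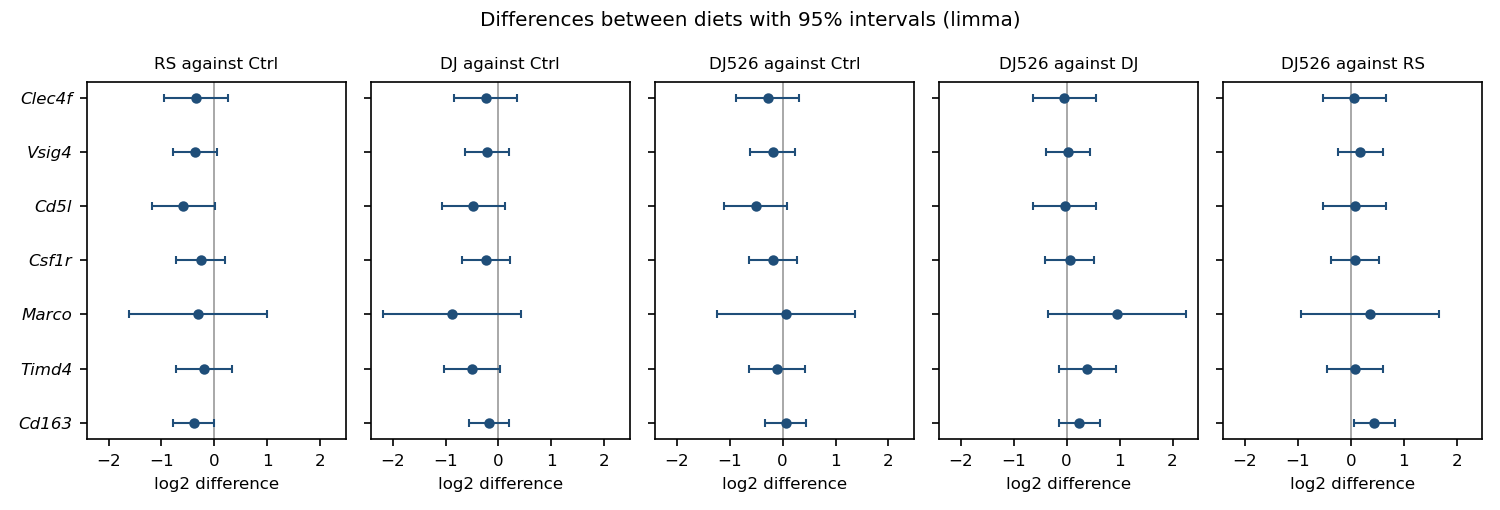
Log2 differences of 7 markers in 5 comparisons between diets, each from 3 mice against 3, with points for the limma estimate and bars for its 95% interval. The bars of Cd163 leave 0 outside in RS against Ctrl and in DJ526 against RS, by a margin that rounds to 0 in the first, and those of Marco are the widest.

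Arrays lay on 3 slides of 4, and some of these values changed when slide was entered as a block. Ctrl mice and DJ mouse 1 were on slide 1, DJ mice 2 and 3 with RS mice 1 and 2 on slide 2, and RS mouse 3 with the DJ526 mice on slide 3. With all Ctrl mice on slide 1 and all DJ526 mice on slide 3, slide and diet cannot be fully told apart. With slide as a block the RS difference from Ctrl became -0.71 for Cd163 (adjusted p = 0.426, limma) and -1.03 for Clec4f (adjusted p = 0.401, limma) instead of -0.35, and 0 of the 7 markers were called in any comparison. DJ against Ctrl moved as well, to -0.80 for Clec4f, -0.81 for Cd5l, -0.49 for Vsig4 and -0.43 for Cd163. With this block Clec4f and Cd5l had an unadjusted p under 0.05 there (adjusted p of 0.427 and 0.503, limma). These DJ values equal DJ mouse 1 minus the mean of the 3 Ctrl mice, so they and their p rest on 1 DJ mouse. DJ mouse 1 was the lowest of all mice in Clec4f. It was the only mouse of another diet on slide 1, so the RS and DJ526 differences from Ctrl with this block also depend on it. Within slide 3, Cd163 was 0.55 higher in the 3 DJ526 mice than in RS mouse 3. No slide held both RS and Ctrl mice. Background correction mattered too, since with normexp the Cd163 differences were -0.11 in RS against Ctrl and 0.11 in DJ526 against RS. Ctrl mouse 3 also decided values, because without it Timd4 was 0.10 and Marco 0.41 higher in RS than in Ctrl instead of lower, Marco was 0.78 higher in DJ526 than in Ctrl instead of 0.07, and Marco was lower in DJ than in Ctrl by -0.17 instead of -0.88. All 7 differences of DJ from Ctrl then lay between -0.24 and -0.10. Without this mouse Cd5l differed from Ctrl by -0.35 instead of -0.58 in RS, and by -0.27 instead of -0.51 in DJ526.

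Across the 12 mice the markers split into those that varied together and those that did not. Pearson's r was computed for all 21 pairs of the 7 genes, and 10 pairs passed an adjusted p of 0.05 in a two-sided permutation test with 100000 resamples, 8 of them also by Spearman's rho. Cd5l and Csf1r had the highest r, 0.937 (rho 0.909, adjusted permutation p = 0.000315). Clec4f had an r of 0.927 with Cd5l (rho 0.951, adjusted permutation p = 0.000315), 0.917 with Csf1r (rho 0.916, adjusted permutation p = 0.00063) and 0.885 with Vsig4 (rho 0.853, adjusted permutation p = 0.00129). Vsig4 had an r of 0.859 with Csf1r and 0.840 with Cd5l. Grouped after their values were seen, Clec4f, Vsig4, Cd5l and Csf1r formed 6 pairs, all with r of 0.840 or more.

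These 6 pairs held within slides and within diets. With slide means removed their r was 0.846 to 0.974, with diet means removed 0.809 to 0.958, and all 6 passed the exact permutation test in each case after adjustment over the 21 pairs. Without the 2 mice farthest from the median of the first gene, r stayed between 0.851 and 0.916. Each of the 6 also passed with any 1 mouse left out.

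The mice behind this were the same in each gene. RS mouse 2, RS mouse 3, DJ mouse 1 and DJ526 mouse 2 were the 4 lowest mice in Clec4f, in Vsig4, in Cd5l and in Csf1r, and Ctrl mouse 3 was the highest in all 4 genes. The low mice thus came from every diet but Ctrl and from all 3 slides, and each of those diets also held a mouse among the 4 highest for at least 3 of the 4 genes. The r of the 4 genes with the share of spots well above background lay between -0.23 and -0.01, that with the median signal of the array between -0.16 and -0.05, and that with its 75th percentile, by which the levels were divided, between 0.36 and 0.50. The part of these array measures in the shared order was not tested.

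**Figure D3:**
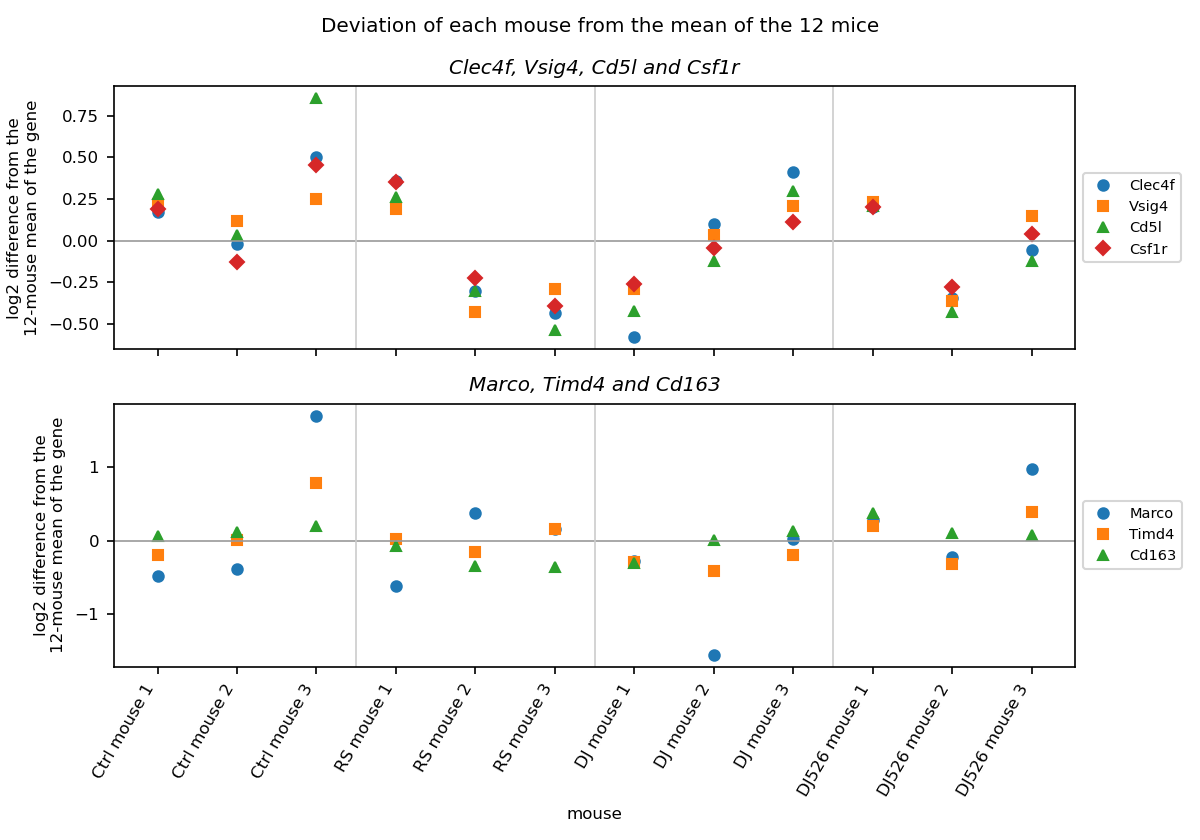
Level of each marker in each mouse as the log2 difference from the mean of that gene over the 12 mice, with Clec4f, Vsig4, Cd5l and Csf1r in the upper panel and Marco, Timd4 and Cd163 in the lower one, whose vertical scale is wider. In the upper panel the 4 points of RS mice 2 and 3, DJ mouse 1 and DJ526 mouse 2 all lie under 0.

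Marco and Timd4 varied together, with an r of 0.845 (rho 0.692, adjusted permutation p = 0.00156). With slide means removed r was 0.816 and with diet means removed 0.808, and it fell to 0.617 without Ctrl mouse 3 and DJ mouse 2, the mice farthest from the median of Marco. The pair passed with any 1 mouse left out, with an r of 0.713 without Ctrl mouse 3. Marco had an r of only 0.114 to 0.354 with Clec4f, Vsig4, Cd5l and Csf1r, none past the test (lowest adjusted permutation p = 0.34), and without Ctrl mouse 3 all 4 of these values were under 0.

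Timd4 had an r of 0.387 to 0.545 with the 4 genes, and none of these pairs passed (lowest adjusted permutation p = 0.118). Cd163 had an r of 0.746 with Vsig4 (rho 0.685, adjusted permutation p = 0.0164), 0.691 with Clec4f (rho 0.643, adjusted permutation p = 0.0318) and 0.652 with Cd5l (rho 0.622, adjusted permutation p = 0.0459). By rho the pairs with Clec4f and Cd5l did not pass (adjusted permutation p of 0.0658 and 0.0736), and r with Clec4f was 0.443 without the 2 mice farthest from the median of Clec4f. The pair with Vsig4 lost its call only without RS mouse 2, that with Clec4f without any of 6 mice, and that with Cd5l without any of 10 mice. With slide means removed these 3 values were 0.798, 0.842 and 0.782, and all passed.

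**Figure D4:**
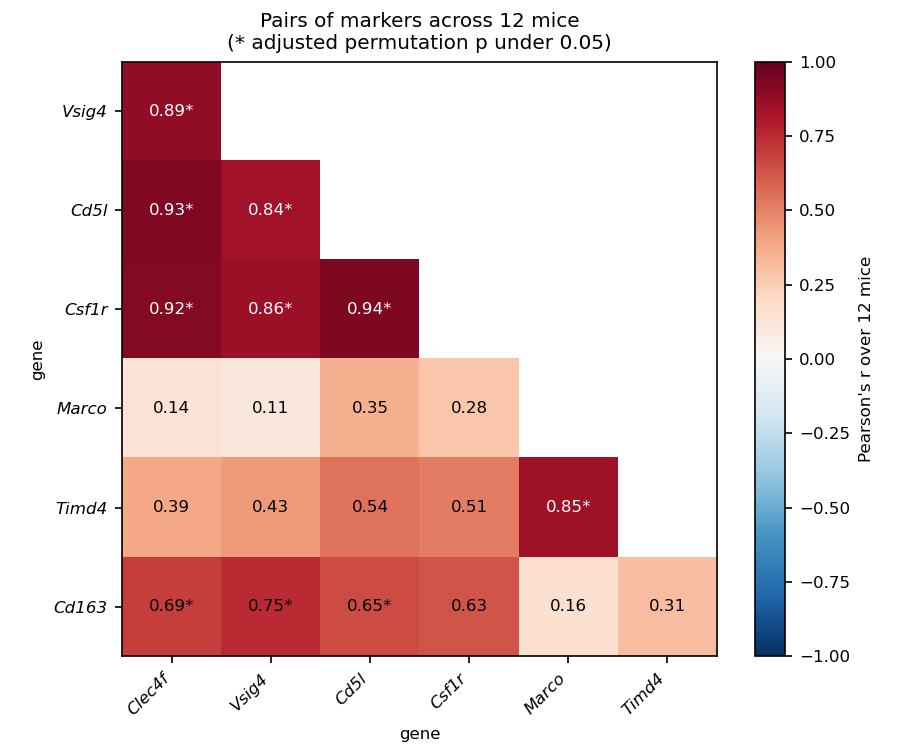
Pearson's r over 12 mice for the 21 pairs of 7 markers, on a colour scale from -1 to 1, with an asterisk where the adjusted permutation p is under 0.05. The 6 pairs among Clec4f, Vsig4, Cd5l and Csf1r are all 0.84 or more, and Marco is high only with Timd4.

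Since Clec4f, Vsig4 and Cd5l moved together and Marco did not, the 250 bases before the start site of these 4 genes are shown (RefSeq, build GRCm38.p6, 5′ to 3′ on the strand of the gene). Capitals mark matches to GAGGAA, the core letters of the PU box to which the macrophage factor PU.1 binds, or to AGGTCA, a core sequence of nuclear receptor sites, on either strand. Clec4f lies on the minus strand of chromosome 6, with this window at chr6:83656117-83656366, Vsig4 on the minus strand at chrX:96293439-96293688, Cd5l on the plus strand at chr3:87357631-87357880 and Marco on the minus strand at chr1:120505025-120505274.
Clec4f: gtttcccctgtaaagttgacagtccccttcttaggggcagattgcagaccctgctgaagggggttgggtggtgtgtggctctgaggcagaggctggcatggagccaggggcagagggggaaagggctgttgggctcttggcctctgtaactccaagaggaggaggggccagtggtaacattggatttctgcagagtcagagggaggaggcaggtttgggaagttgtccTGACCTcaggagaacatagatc
Vsig4: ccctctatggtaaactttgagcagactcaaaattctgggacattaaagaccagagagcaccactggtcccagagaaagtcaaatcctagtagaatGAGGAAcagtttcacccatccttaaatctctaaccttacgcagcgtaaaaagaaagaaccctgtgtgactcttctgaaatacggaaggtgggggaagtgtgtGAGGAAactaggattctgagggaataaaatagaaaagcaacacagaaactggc
Cd5l: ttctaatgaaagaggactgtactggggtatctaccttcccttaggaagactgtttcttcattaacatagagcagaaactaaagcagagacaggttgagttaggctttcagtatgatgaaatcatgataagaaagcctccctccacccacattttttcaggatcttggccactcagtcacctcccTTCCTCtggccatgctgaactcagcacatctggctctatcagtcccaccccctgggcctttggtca
Marco: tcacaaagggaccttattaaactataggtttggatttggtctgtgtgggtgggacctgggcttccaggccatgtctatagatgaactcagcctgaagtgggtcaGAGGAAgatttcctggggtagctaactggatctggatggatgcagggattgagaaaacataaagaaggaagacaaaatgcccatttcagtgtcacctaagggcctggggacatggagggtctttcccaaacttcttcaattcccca

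Windows of this kind were searched for 6 of the genes, the 4 above with Cd163 and Timd4. GAGGAA was found on either strand in 3 of them, 2 times in Vsig4, at -155 and -53 from the start site, and 1 time each in Marco, at -146, and Cd5l, at -66, and 23.3% of the 32851 windows of all promoters held it. AGGTCA was found in 2, Clec4f at -22 and Timd4 at -116, and in 14.02% of all windows. The AP-1 site TGANTCA was found in 0 of the 6 and in 6.75% of all windows. No match overlapped another. Csf1r was not among the genes searched, and whether these matches bear on how the genes varied over the mice was not tested.

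The genes most like each marker were ranked by r over the same 12 mice among 15563 genes, with each gene read at its brightest probe. For Clec4f they were Siglec1 (0.971), a macrophage sialic acid receptor, C1qa (0.951), a chain of complement C1q, and Folr2 (0.951), a folate receptor of resident macrophages. Only 0.912% of the genes had an r over 0.8 with Clec4f, and the median was -0.05. Siglec1 was lowest in DJ mouse 1, RS mouse 3 and RS mouse 2, at -3.09, -2.86 and -2.83, the first of which was also lowest in Clec4f.

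Folr2 also led for Vsig4 (0.942), before Pilra (0.903) and Pilrb1 (0.899), a pair of paired immunoglobulin-like receptors. Cd5l was most like Clec4a3 (0.971), a lectin receptor of myeloid cells, C1qa (0.969) and Pilra (0.968). Csf1r was most like Nfam1 (0.979), Tyrobp (0.970) and Cd300c2 (0.967), and Tyrobp encodes an adaptor of activating receptors of myeloid cells.

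Marco had other neighbours, Irak3 (0.958), an inhibitor of signalling by Toll-like receptors, Mefv (0.940), which encodes pyrin, and Slc1a2 (0.904), a glutamate transporter. Irak3 was -2.01 in Ctrl mouse 3 and -3.83 in DJ mouse 2, its highest and lowest mice, as for Marco. Timd4 was most like Cfp (0.974), which encodes properdin, Cd55b (0.919) and Ifitm6 (0.897). Cd163 had the least close neighbours, 2810025M15Rik (0.877), Pcolce2 (0.869) and Mylip (0.860), and only 0.0643% of the genes had an r over 0.8 with it.

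Other genes of macrophages and of other liver cells were read from lists, 156 genes in all, of which 0 were called in any comparison by limma, with 8 at an unadjusted p under 0.05 in RS, 14 in DJ and 15 in DJ526 against Ctrl. These were 5.13%, 8.97% and 9.62% of the list genes, beside 6.0%, 5.25% and 10.8% of all probes. Among 14 further Kupffer cell genes the median differences from Ctrl were -0.13 for RS, -0.21 for DJ and -0.16 for DJ526, and the largest were those of Adgre4, -0.59 in RS (adjusted p = 0.808, limma) and -0.83 in DJ, and of Slc11a1, an iron and manganese transporter of phagosomes, -0.44 in DJ526. Among 23 general macrophage genes the medians were -0.19, -0.20 and -0.17, led by Spi1, which encodes PU.1, with -0.42 in RS, Adgre1, the F4/80 antigen, with -0.46 in DJ, and the Fc receptor Fcgr1 with -0.52 in DJ526. The summed level of these macrophage genes was 109 in Ctrl mouse 3, beside 92.8 and 72.9 in Ctrl mice 1 and 2. The list medians without Ctrl mouse 3 were not computed.

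Both lists followed Clec4f over the mice. The median r with Clec4f was 0.797 over the 14 Kupffer cell genes, 7 of them over 0.8, and 0.781 over the 23 macrophage genes, 9 of them over 0.8. In the Kupffer cell list Folr2, Slc11a1 and Clec1b lay over 0.9, while Id3 had an r of -0.12 and Slc40a1, the iron exporter, 0.26. Macrophage genes with a low r were Itgam (-0.21) and Irf8 (0.16). With Marco the medians of the same lists were 0.322 and 0.351, and no gene of either list was over 0.8.

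Lists of the markers' roles gave fewer such genes. Of 6 detected CSF1 receptor ligands and relatives, Csf1 had an r of 0.11 and Il34 of -0.23 with Clec4f, and Kit had the largest difference in RS, -0.46 (adjusted p = 0.464, limma), and in DJ526, -0.30, and Flt3 in DJ, 0.45. Of 11 scavenger receptors only Msr1 (0.86) was over 0.8 with Clec4f, and the largest differences were those of Scara3 in RS, 0.43, and of Cd36 in DJ, 0.76, and DJ526, -0.40. For haemoglobin and iron recycling, Hamp, which encodes the iron hormone hepcidin, had the largest difference from Ctrl for each diet, 1.16 for RS, 0.79 for DJ and 1.11 for DJ526 (adjusted p of 0.549, 0.916 and 0.240, limma). Its levels were 6.17, 6.79 and 5.65 in Ctrl, 7.17, 7.64 and 7.29 in RS, 7.20, 7.37 and 6.43 in DJ, and 7.47, 6.95 and 7.53 in DJ526, with only DJ overlapping Ctrl, and groups were apart for 10.2% of all probes in RS and 20.8% in DJ526 against Ctrl. Of 10 genes for uptake of dying cells, Axl (0.90) alone was over 0.8 with Clec4f and Pros1 (0.82) alone with Marco, and the largest differences were those of Mfge8 in RS, 0.31, and DJ526, 0.32, and of Adgrb1 in DJ, -0.43.

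Genes of recruited monocytes and of activation gave 0 calls as well. Of 12 monocyte and recruited macrophage genes Lgals3 (0.82) alone was over 0.8 with Clec4f, and Chil3 had the largest differences, -2.91, -2.65 and -3.02, which rested on Ctrl mouse 2 at 3.55 while the other 11 mice lay between -3.94 and -1.73. Among 11 activation genes the largest differences were those of Cxcl10, 0.37 in RS and 0.40 in DJ, and of Il1b, -0.48 in DJ526. Among 8 genes of the liver X receptor list only Mylip (0.88) was over 0.8 with Clec4f, and the largest differences were those of Mylip in RS, -0.24, and Srebf1 in DJ526, -0.45.

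Markers of other cells moved with some members and their part in these results was not tested. Among 6 neutrophil genes the median r with Clec4f was 0.645, and the summed level of the list, relative to the 75th percentile, was 12.2 in Ctrl mouse 3 and 3.43 to 6.90 in the other mice. Ctrl mouse 3, the highest mouse in Marco, Timd4 and the 4 genes that moved together, thus also stood apart in neutrophil genes, with S100a8 at 1.05 against -2.42 to 0.02 elsewhere. Mpo, at -0.98 in DJ, and S100a8, at -1.01 in RS and -1.07 in DJ526, had the largest neutrophil differences from Ctrl. Over the 9 sinusoidal endothelial genes the median r with Clec4f was 0.534, led by Stab2 (0.79), and their summed level was 47.3 in DJ mouse 1 and 55.1 to 62.9 in the others. DJ mouse 1 was the lowest mouse in Clec4f.

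The remaining lists did not run with Clec4f. The median r was -0.16 over 8 hepatocyte genes, -0.04 over 8 stellate cell genes, -0.34 over 5 cholangiocyte genes, -0.22 over 4 B cell genes, -0.12 over 6 T and NK cell genes, -0.13 over 5 dendritic cell genes and 0.19 over 4 erythroid genes. B cell genes had the widest ratio between mice among the 18 lists, with a summed level of 0.42 in Ctrl mouse 2 and 5.98 in DJ mouse 1, and Ms4a1, which encodes CD20, lay 1.34, 1.57 and 1.82 over Ctrl in RS, DJ and DJ526 (adjusted p = 0.524 in DJ526, limma). The largest differences from Ctrl in RS, DJ and DJ526 were -0.21 (Oit3), -0.27 (Mrc1) and -0.26 (Pecam1) among endothelial genes, 0.65, 0.59 and 0.24 (Col1a1) among stellate cell genes, and -0.27 (Apob), -0.29 and 0.38 (Cps1) among hepatocyte genes. They were -0.61, -0.67 and -0.99 (Krt19) among cholangiocyte genes, 0.46, 0.63 (Cd3d) and 0.76 (Cd3g) among T and NK cell genes, 0.45, 0.45 (Flt3) and 0.41 (Zbtb46) among dendritic cell genes, and -0.31, -0.28 (Hba-a1) and 0.21 (Hbb-b2) among erythroid genes. The lowest adjusted p of any gene in the 18 lists in any comparison was 0.132 (limma).

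**Figure D5:**
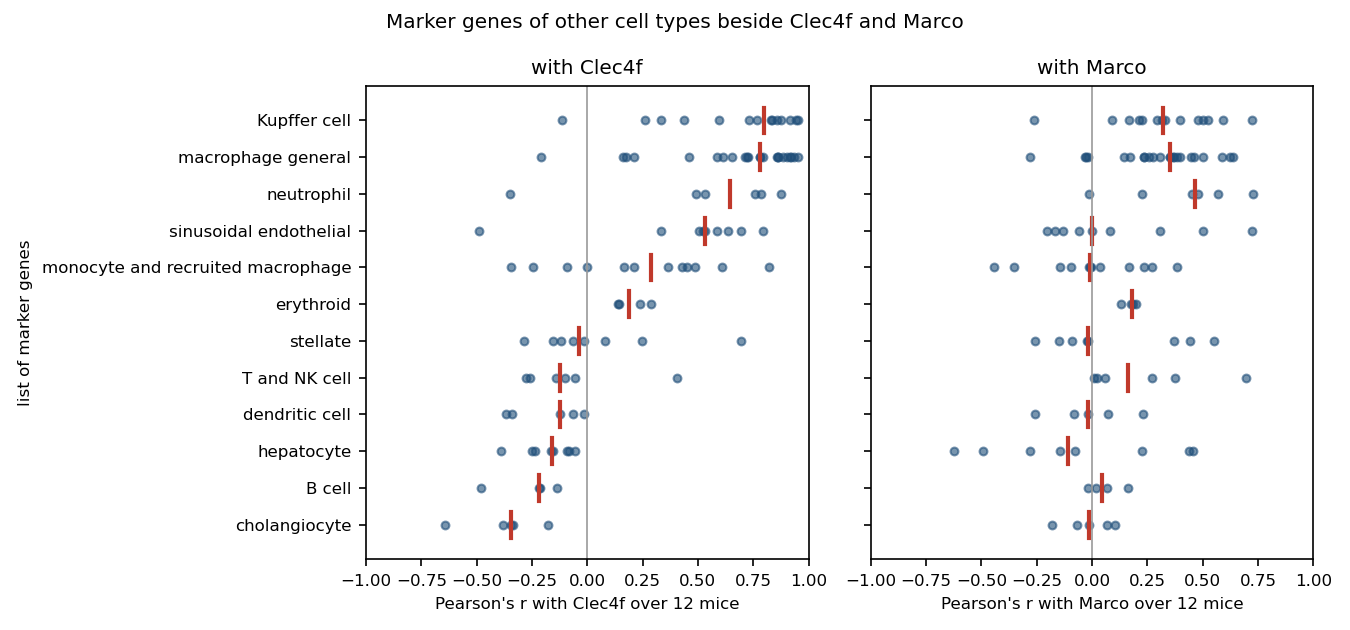
Pearson's r over 12 mice between Clec4f (left) or Marco (right) and the marker genes of 12 cell type lists, with a point for each gene well above background on all arrays and a red mark for the median of the list. Kupffer cell and general macrophage genes have medians of 0.797 and 0.781 with Clec4f, and of 0.322 and 0.351 with Marco.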

How the data were processed

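Liver RNA of 12 mice was hybridised to 1-colour Agilent arrays, 3 mice a diet. The authors deposited the intensity of each spot as written by Feature Extraction 11.5.1.1, which subtracts background, together with their table of normalized intensities, which equalled the processed signal times 1 factor per array (0.959 to 1.08). From the deposited intensities the log2 of the processed signal was taken relative to the 75th percentile of each array, outlier and control spots were left out, and spots of a probe were averaged. Accessions were matched to RefSeq symbols for 27508 of 39429 probes (69.8%), and a gene with several probes was read at the brightest. Cd68 was not matched. Levels depend on the array's 75th percentile, and the 3 mice a group limit the precision.

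All probes entered 1 limma fit over 4 diets (limma 3.58.1, R 4.3.3) with Benjamini-Hochberg adjustment. The methods' t-test was an alternative. Pairs of markers were compared by permutation tests with 100000 resamples, or by exact enumeration within slides or diets (Python 3.11.15, numpy 2.4.6, scipy 1.17.1, pandas 2.3.3, matplotlib 3.10.9). The fit was tested on simulated data. Differences of a marker were printed singly where its unadjusted p was under 0.05 or its mice did not overlap, and otherwise as a range or where another setting moved them. For each list the gene with the largest difference from Ctrl was named, except for 1 list and diet where it is not reported here, and for each marker the 3 genes with the highest r. Alternatives were normexp background correction, the authors' table, quantile normalization, a filter on dim probes, another variance prior, slide or replicate number as a block, the compared groups alone, position on the array, outlier spots kept, the mean of a gene's probes and leaving out each mouse. Same-numbered mice of different diets correlated by -0.354 to 0.406, so the numbers were not taken as pairs. The markers and lists were chosen with earlier results of these data known.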

Additional observations from a re-analysis of the deposited data

Results flagged for a closer look

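Cd163 was singled out because, in the main fit, its estimated difference between feeds with and without resveratrol was not the same on both carbohydrate sources. The difference DJ526 minus DJ exceeded RS minus Ctrl by 0.62 (SE 0.247, 95% interval 0.08 to 1.17). The difference between these effects had an unadjusted p under 0.05 and did not hold after adjustment over all probes (limma adjusted p = 0.763), and 6.14% of all probes had an unadjusted p under 0.05 there. Its probe was dim, at -5.00 to -4.26 in the 12 mice, and the size depended on the processing. The same quantity is DJ526 minus RS against DJ minus Ctrl. These 2 differences were 0.44 and -0.18 in the main fit, but 0.11 and -0.004 with normexp background correction. With slide as a block DJ526 minus DJ was 0.27 and RS minus Ctrl was -0.71.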

How the results depend on the processing

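No marker was called in any comparison under any of the 21 to 23 alternatives run for it, with adjusted p of 0.366 or more, and the limit throughout is 3 mice a group. Cd163 kept its direction but shrank to -0.11 in RS against Ctrl and 0.11 in DJ526 against RS with normexp background correction. Marco in DJ against Ctrl was -0.13 with normexp, where the Ctrl mouse 3 value was missing, and -1.27 to -0.17 with 1 mouse left out. Directions turned as follows under the limma alternatives, and the cause was not tested. Marco in RS against Ctrl, -0.30, was 0.41 with normexp, 0.10 with slide as a block and 0.41 without Ctrl mouse 3, and Clec4f in DJ against Ctrl, -0.24, was 0.04 without DJ mouse 1. In DJ526 against Ctrl, Cd163, 0.06, was -0.01 with quantile normalization, -0.16 with slide as a block, -0.10 with the position on the array removed and -0.04 without DJ526 mouse 1, and Timd4, -0.11, was 0.19 without Ctrl mouse 3 and 0.09 without DJ526 mouse 2. Vsig4, Cd5l and Csf1r in DJ526 against DJ and Cd5l, Csf1r and Timd4 in DJ526 against RS, all within 0.09 of 0, turned under 2 or more alternatives each. Clec4f in DJ526 against DJ, -0.04, was 0.019 from the authors' table, 0.14 with slide as a block and -0.32 to 0.17 with 1 mouse left out. Clec4f in DJ526 against RS, 0.06, was -0.093 to 0.30, Marco in DJ526 against Ctrl, 0.07, was -0.31 to 0.78, and Timd4 in RS against Ctrl, -0.19, was -0.39 to 0.10, each with 1 mouse left out. Correlated pairs numbered 7 to 11, 7 of them with normexp, and removing diet means, chosen after seeing the data, gave 11. Over all probes the calls ran from 0 to 4 in RS against Ctrl, 0 to 8 in DJ against Ctrl, 0 to 166 in DJ526 against Ctrl, 0 to 107 in DJ526 against DJ, 0 to 40 in DJ526 against RS, 0 to 18 for the difference of resveratrol effects and 0 to 52 for any difference, the 166, 107 and 52 without RS mouse 3, against 0, 0, 2, 4, 3, 0 and 2.

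With the replicate number as a block, 0 markers were called, the Cd163 difference in RS against Ctrl was -0.39 (limma adjusted p = 0.876), and no call of a marker changed, while calls over all probes fell from 2, 4, 3 and 2 to 0 in DJ526 against Ctrl, DJ and RS and for any difference. The numbers carry no known pairing, since same-numbered mice correlated by 0.0292 on average.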
